A study of Homo sapiens with 6 samples.

Results

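The 34 genes described here were chosen by name from a list of chaperone families. By that list they encode heat shock proteins, nearly all of the cytosol or mitochondria, with their co-chaperones and the heat shock factors HSF1 and HSF2. All 34 were found among the 20263 genes of the count table. The gene named HSPB11 in GENCODE release 29 is called IFT25 in the symbol table and was matched by its GENCODE name. Its place among the small heat shock proteins here rests on that name alone. RNA sequencing (RNA-seq) of MV4-11, an established human line from acute myeloid leukemia with a FLT3 internal tandem duplication and a KMT2A-AFF1 fusion, gave 2 libraries for each of 3 treatments of 24 h. The groups were the combination of venetoclax and cyclosporine A (VEN+CSA), venetoclax alone (VEN, 100 nM) and cyclosporine A alone (CSA, 2.5 µM). The doses come from the growth protocol in the labels, since the deposited treatment entry of every sample names gavage, a route for animals that does not match a cell line. The doses within the combination are not stated separately. Venetoclax inhibits the survival protein BCL2, and cyclosporine A inhibits calcineurin through its binding to cyclophilins. Every group was exposed to at least one drug, so a difference between groups is a difference between treatments, and no untreated library was analysed here. Whether replicates came from separate cultures is not stated, so p-values cover only the spread among these libraries, which may be technical. In bulk RNA, fewer cells making a transcript and less transcript per cell cannot be told apart.

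Heat shock proteins bind unfolded or partly folded proteins and help them fold, move across membranes or reach the proteasome. HSP70 proteins bind and release clients in a cycle driven by ATP, in which HSP40 (J-domain) proteins start ATP hydrolysis and HSP110 proteins and BAG3 exchange the nucleotide. HSP90 takes up clients such as kinases, mutant FLT3 among them, with the help of co-chaperones. HSF1 is the transcription factor that raises many of these genes when unfolded proteins accumulate. It binds heat shock elements, which are repeats of the bases GAA in alternating orientation, and HSPA1A, HSPA1B, HSPA6, DNAJB1, HSPB1 and BAG3 are the genes usually read as its most inducible targets. HSPA8 and HSP90AB1 are the constitutive forms of HSP70 and HSP90.

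Promoter windows of 300 bases (250 before and 50 after the transcript start, from RefSeq on GRCh38.p14) were available for 31 of the 34 genes, and some genes had windows at several starts. They were searched on both strands for the letters GAANNTTC and TTCNNGAA, which join a pair of such repeats, and for 13-letter runs of 3 alternating repeats spaced by NN, which extend GAANNTTC by NNGAA or TTCNNGAA by NNTTC and so contain the shorter letters. A 13-letter run was in a window of 8 of the 31 genes (25.8%), against 0.608% of 27305 genes with a window. At least one of the shorter motifs was in 16 of the 31 genes (51.6%), against 16.2% of all genes. The 8 genes with a 13-letter run were HSPA6, HSPA8, HSPD1, HSP90AA1, HSP90AB1, CHORDC1, DNAJA1 and DNAJB6. A match describes the sequence only and does not show binding of a factor. The windows below are from genes that the comparisons turn on, written 5′ to 3′ on the gene's strand with motif matches in capitals. HSPA8 at chr11:123062087-123062386 (minus strand), CHORDC1 at chr11:90223000-90223299 (minus strand), DNAJA1 at chr9:33025023-33025322 (plus strand) and HSP90AA1 at chr14:102086995-102087294 (minus strand) are shown for their 13-letter runs. HSPA1A at chr6:31815293-31815592 (plus strand) is shown as an inducible gene whose window held 1 shorter motif.
HSPA8: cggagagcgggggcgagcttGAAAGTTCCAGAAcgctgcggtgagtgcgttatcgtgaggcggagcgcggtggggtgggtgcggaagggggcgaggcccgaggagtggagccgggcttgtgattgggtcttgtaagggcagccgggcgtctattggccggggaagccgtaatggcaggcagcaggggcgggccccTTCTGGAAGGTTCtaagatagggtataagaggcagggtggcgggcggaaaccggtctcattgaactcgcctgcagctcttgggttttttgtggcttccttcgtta
CHORDC1: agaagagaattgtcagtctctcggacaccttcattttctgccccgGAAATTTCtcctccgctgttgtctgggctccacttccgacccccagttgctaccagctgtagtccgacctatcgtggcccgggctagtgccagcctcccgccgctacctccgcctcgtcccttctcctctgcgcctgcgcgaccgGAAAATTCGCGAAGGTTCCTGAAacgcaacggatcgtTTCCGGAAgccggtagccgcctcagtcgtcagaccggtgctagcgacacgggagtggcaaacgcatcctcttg
DNAJA1: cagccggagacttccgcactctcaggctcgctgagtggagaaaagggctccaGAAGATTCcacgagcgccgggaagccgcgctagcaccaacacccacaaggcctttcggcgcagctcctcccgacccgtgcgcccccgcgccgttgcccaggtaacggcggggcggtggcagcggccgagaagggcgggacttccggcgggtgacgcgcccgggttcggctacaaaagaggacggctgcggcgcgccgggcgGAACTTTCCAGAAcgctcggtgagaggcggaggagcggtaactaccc
HSP90AA1: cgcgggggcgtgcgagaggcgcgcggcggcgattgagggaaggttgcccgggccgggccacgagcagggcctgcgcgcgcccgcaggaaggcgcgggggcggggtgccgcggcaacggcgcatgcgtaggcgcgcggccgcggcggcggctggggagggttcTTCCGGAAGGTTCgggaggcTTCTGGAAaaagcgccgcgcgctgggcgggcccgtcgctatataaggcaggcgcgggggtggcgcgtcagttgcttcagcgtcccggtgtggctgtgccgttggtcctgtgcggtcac
HSPA1A: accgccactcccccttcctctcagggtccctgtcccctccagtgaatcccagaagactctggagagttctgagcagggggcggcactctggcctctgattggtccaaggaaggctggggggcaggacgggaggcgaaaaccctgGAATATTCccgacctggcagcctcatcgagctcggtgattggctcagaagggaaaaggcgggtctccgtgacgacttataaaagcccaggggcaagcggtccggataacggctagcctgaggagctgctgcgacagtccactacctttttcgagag

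The next windows are from HSPH1 at chr13:31162339-31162638 (minus strand), HSPA13 at chr21:14383097-14383396 (minus strand) and DNAJB2 at chr2:219279116-219279415 (plus strand), which are among the genes that differed most in the comparisons. None of these 3 windows held any of the letters searched, which says nothing about elements outside them.
HSPH1: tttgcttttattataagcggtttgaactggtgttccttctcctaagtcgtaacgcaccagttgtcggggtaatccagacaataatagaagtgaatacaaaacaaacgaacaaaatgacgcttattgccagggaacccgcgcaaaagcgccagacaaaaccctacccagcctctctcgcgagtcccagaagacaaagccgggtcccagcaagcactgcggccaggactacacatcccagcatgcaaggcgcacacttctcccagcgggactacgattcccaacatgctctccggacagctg
HSPA13: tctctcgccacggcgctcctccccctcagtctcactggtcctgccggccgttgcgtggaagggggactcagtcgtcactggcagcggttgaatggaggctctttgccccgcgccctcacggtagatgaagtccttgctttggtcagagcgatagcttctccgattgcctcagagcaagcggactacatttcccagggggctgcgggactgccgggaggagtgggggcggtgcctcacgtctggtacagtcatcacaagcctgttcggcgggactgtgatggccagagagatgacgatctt
DNAJB2: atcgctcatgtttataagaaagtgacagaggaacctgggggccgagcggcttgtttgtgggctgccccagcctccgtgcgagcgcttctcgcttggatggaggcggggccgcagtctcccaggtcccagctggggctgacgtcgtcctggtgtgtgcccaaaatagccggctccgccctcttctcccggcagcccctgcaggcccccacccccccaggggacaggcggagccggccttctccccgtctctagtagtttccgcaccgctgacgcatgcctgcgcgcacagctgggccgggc

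Total counts per library were 26567900 to 30738957. The line matched its label: all 11 myeloid and leukemia markers had counts, with FLT3 at 837.8 to 925.9 CPM (counts scaled to a common library size), although the monocyte marker CD14 was at no more than 0.407 CPM and MPO at 5.46 to 9.32 CPM. Of the T cell markers 4 of 5 were at 0, as were 3 of 4 erythroid markers and EPCAM among the 4 epithelial markers, and the 5 B cell markers summed to 3.08 to 5.16 CPM. VEN replicate 2 differed from the rest in its makeup. Transcripts of the mitochondrial genome held 8.06% and 15.2% of the counts with the combination, 8.01% and 41.5% with venetoclax, and 7.41% and 9.71% with CSA. The median absolute log2 difference between replicates, over the 33 heat shock genes that passed the filter on low counts, was 0.13 with the combination, 0.39 with venetoclax and 0.09 with CSA, against 0.18, 0.44 and 0.13 over all 12690 genes tested. CPM values are scaled by the trimmed mean of M-values (TMM), which takes most genes as equal between libraries. On that scale VEN replicate 2 was the highest of the 6 libraries for 17 of the 33 genes (51.5%), against 35.6% of all genes tested, and VEN replicate 1 was the highest for 10 (30.3%), against 13.4%. For this reason the counts and medians of each comparison, and the fold changes that moved most, are also given without VEN replicate 2.

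Levels of different genes were compared as RPKM (CPM divided by exon length in kilobases), averaged over the 6 libraries. HSP90AB1 was the most abundant, at a mean of 694.1 RPKM, followed by HSPA8 at 396.3 RPKM and HSP90AA1, the inducible HSP90 form, at 332.2 RPKM. The ranges of HSPA8 (307.3 to 550.0 RPKM over the 6 libraries) and HSP90AA1 (279.2 to 474.6 RPKM) overlapped between libraries, but HSPA8 was above HSP90AA1 in 6 of 6 libraries. HSPD1, the mitochondrial chaperonin HSP60, followed at 169.0 RPKM and its partner HSPE1 (HSP10) was at 74.8 RPKM. CDC37, which delivers kinases to HSP90, was at 130.9 RPKM and HSPA9, the mitochondrial HSP70, at 96.6 RPKM. The genes named above as the most inducible targets of HSF1 were lower than these. HSPB1, a small heat shock protein, was at 58.8 RPKM, DNAJB1, an HSP40, at 17.7 RPKM, and BAG3 at 7.04 RPKM. HSPA1A was at 13.8 RPKM and HSPA1B at 12.2 RPKM. Of the factors, HSF1 was at 14.9 RPKM and HSF2 at 6.87 RPKM. DNAJB2, an HSP40 known for high levels in neurons, was at 0.961 RPKM. HSPA6, which encodes a strictly inducible HSP70, was the only one of the 34 genes that did not pass the filter. It had 6 and 4 counts with the combination, 5 and 1 with venetoclax, and 12 and 4 with CSA, too few for a comparison.

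**Figure D1:**
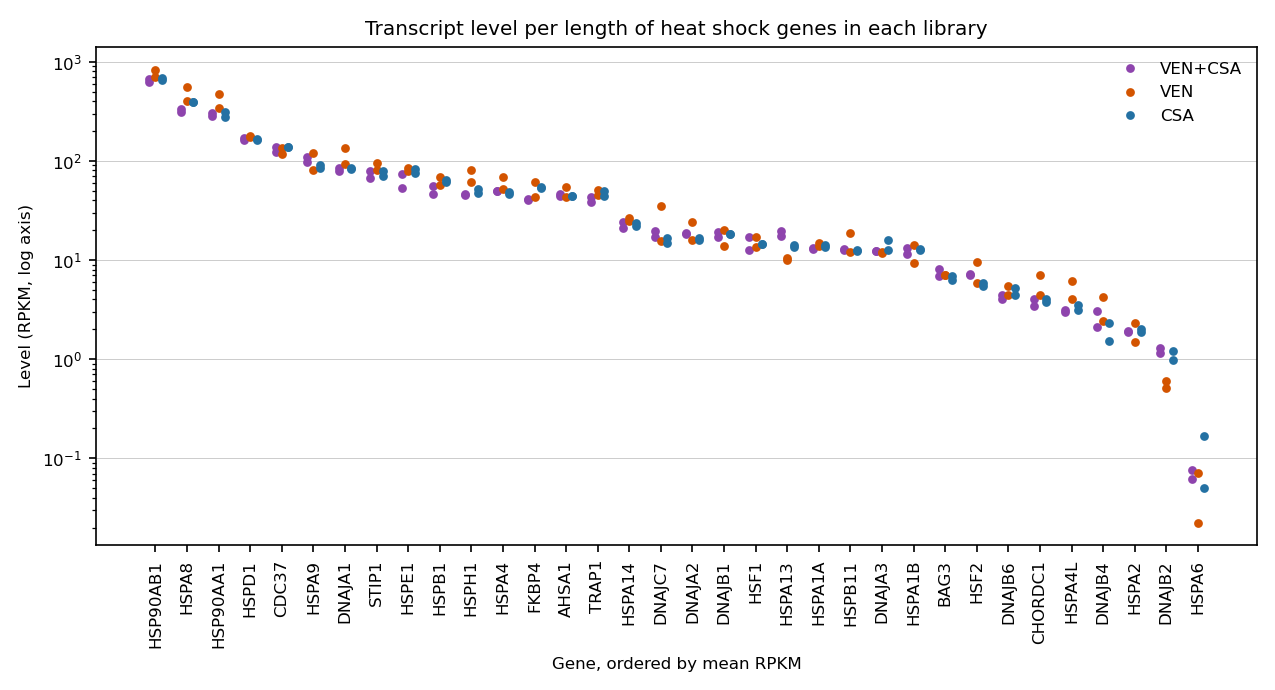
Level of each of the 34 genes per exon length (RPKM, log axis) in the 6 libraries, ordered by the mean; each point is a library, with VEN+CSA left, VEN in the middle and CSA right of each position. HSP90AB1 (mean 694.1 RPKM), HSPA8 and HSP90AA1 lead, and DNAJB2 (0.961 RPKM) and HSPA6 are lowest.

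The combination against venetoclax alone asks what CSA added to venetoclax, provided the venetoclax dose was the same in both, which is not stated. At an adjusted p of 0.05 (edgeR's quasi-likelihood test with Benjamini-Hochberg adjustment over all genes tested), 0 of the 33 genes were called, beside 0 of 12690 genes in all (0%). At an unadjusted p under 0.05, 2 genes were higher (background 5.33%) and 3 were lower (background 5.48%). With the combination, 24 of the 33 genes had a lower fitted level and 9 a higher one, with a median log2 fold change of −0.23, against −0.01 over all genes tested. In 17 of the 33 (51.5%) both combination libraries lay below both venetoclax libraries, where 18.9% of all genes tested did so, and in 3 (9.09%) both lay above, against 19.2%. Without VEN replicate 2, 23 of 34 genes were lower with a median of −0.10, against 0.01 over all genes, HSPA6 now passing the filter. In that fit 0 of the 34 were called, against 0.379% of all genes, with 3 higher and 5 lower at an unadjusted p under 0.05, against 8.28% and 7.17% of all genes.

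**Figure D2:**
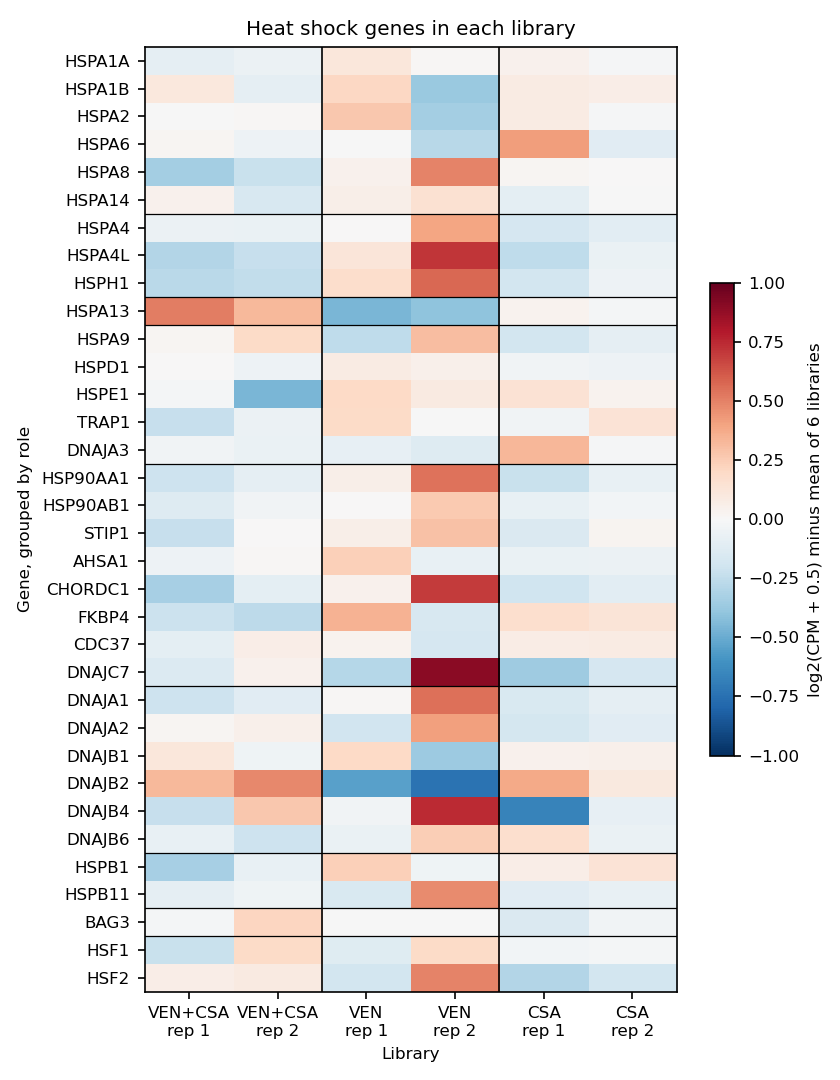
log2(CPM + 0.5) of each gene in each library minus its mean over the 6 libraries, with genes grouped by role and libraries in columns (VEN+CSA, VEN, CSA; 2 replicates each). HSPA13 and DNAJB2 are low in both VEN libraries, and most other strong colours lie in VEN replicate 2, the highest library for 17 of the 33 genes tested.

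The largest fold changes in this comparison were upward, in HSPA13 and DNAJB2. HSPA13 (chr21:14371115-14383484, minus strand, GRCh38) encodes an HSP70-like ATPase of microsomes. It was at 83.0 and 72.5 CPM with the combination, against 42.2 and 43.8 CPM with venetoclax. The groups did not overlap, and both venetoclax libraries sat below every other library. The log2 fold change was 0.86 (SE 0.16, 95% interval 0.47 to 1.24), a fold of 1.81, with unadjusted p = 0.00167 and adjusted p = 0.195 by edgeR. Without VEN replicate 2 it was 0.89 (SE 0.14, adjusted p = 0.0931 by edgeR), so the size did not rest on that library. DESeq2 gave HSPA13 a log2 fold change of 0.86 with adjusted p = 0.00206, in a test that called 2 of the 34 genes and 2.22% of all genes. DNAJB2 (chr2:219279267-219286900, plus strand) was at 6.84 and 7.67 CPM with the combination, against 3.52 and 3.02 CPM with venetoclax. Its log2 fold change was 1.14 (SE 0.23, 95% interval 0.58 to 1.70), with adjusted p = 0.220 by edgeR and 0.0254 by DESeq2, and 1.04 without VEN replicate 2. By limma-voom with library quality weights the log2 fold change was 1.12, with adjusted p = 0.853. DESeq2 was the only test of all 6 libraries that called HSPA13 or DNAJB2. DNAJB2 rested on few reads: its counts were 228 and 211 with the combination and 104 and 57 with venetoclax.

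The 3 genes that were lower with the combination at an unadjusted p under 0.05 act in the HSP70 cycle. HSPH1 (HSP110; chr13:31134974-31162388, minus strand), the exchange factor of HSP70, was at 377.9 and 385.0 CPM with the combination, against 515.8 and 678.5 CPM with venetoclax. The log2 fold change was −0.65 (SE 0.18, 95% interval −1.10 to −0.20, adjusted p = 0.355 by edgeR). The related exchange factor HSPA4L (chr4:127781821-127840733, plus strand) was at 35.0 and 36.5 CPM with the combination and 46.8 and 70.8 CPM with venetoclax (−0.72, SE 0.24, adjusted p = 0.406 by edgeR). HSPA8 (chr11:123057489-123063230, minus strand), the constitutive HSP70, was at 1490 and 1622 CPM with the combination and 1944 and 2667 CPM with venetoclax (−0.57, SE 0.21, adjusted p = 0.435 by edgeR). In these 3 genes both combination libraries lay below both venetoclax libraries, but VEN replicate 2 was well above its replicate. Without it the values were −0.43 for HSPH1, −0.39 for HSPA4L and −0.32 for HSPA8. With VEN replicate 1 left out instead, the values were −0.83, −0.98 and −0.78. The only venetoclax library was then VEN replicate 2, with 41.5% of its counts from the mitochondrial genome. That fit called 11 of the 34 genes (32.4%) and 26.4% of all genes tested, so calls among the heat shock genes were near the background. HSPA4, the third HSP110 gene, was at 258.4 and 257.6 CPM with the combination and 269.8 and 354.3 CPM with venetoclax (−0.27, SE 0.18, and −0.06 without VEN replicate 2).

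CHORDC1, an HSP90 co-chaperone, was at 36.5 and 43.0 CPM with the combination, against 47.5 and 75.0 CPM with venetoclax (−0.62, SE 0.25, adjusted p = 0.462 by edgeR). DNAJA1, an HSP40, was at 216.1 and 230.0 CPM with the combination and 251.3 and 364.2 CPM with venetoclax (−0.46, SE 0.21). HSP90AA1 was at 1487 and 1609 CPM with the combination and 1782 and 2491 CPM with venetoclax (−0.46, SE 0.22). In all 3 the groups did not overlap and VEN replicate 2 was the highest library. Without it their log2 fold changes were −0.26, −0.17 and −0.20. In the fit without VEN replicate 1, where VEN replicate 2 was the only venetoclax library, they were −0.92, −0.71 and −0.69. HSP90AB1 was at 1881 and 2006 CPM with the combination and 2069 and 2477 CPM with venetoclax (−0.23, SE 0.18, and −0.09 without VEN replicate 2). FKBP4, an immunophilin that binds HSP90, had its larger difference without VEN replicate 2. It was at 214.9 and 208.2 CPM with the combination, against 318.5 and 223.1 CPM with venetoclax, the lower of these in VEN replicate 2. Its log2 fold change was −0.36 (SE 0.20) with all libraries and −0.59 (SE 0.10, adjusted p = 0.103 by edgeR) without that one. DNAJC7, a co-chaperone of both HSP70 and HSP90, differed in sign between the fits. It was at 161.2 and 182.6 CPM with the combination and 145.2 and 331.1 CPM with venetoclax, giving −0.47 with all libraries and 0.25 without VEN replicate 2. The other HSP90 co-chaperones in the list were nearer 0, with STIP1, which links HSP70 to HSP90, at −0.29 (SE 0.17), AHSA1, which activates the ATPase of HSP90, at −0.11 (SE 0.17) and CDC37 at 0.05 (SE 0.15). With VEN replicate 2 left out they were at −0.16, −0.26 and −0.04.

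**Figure D3:**
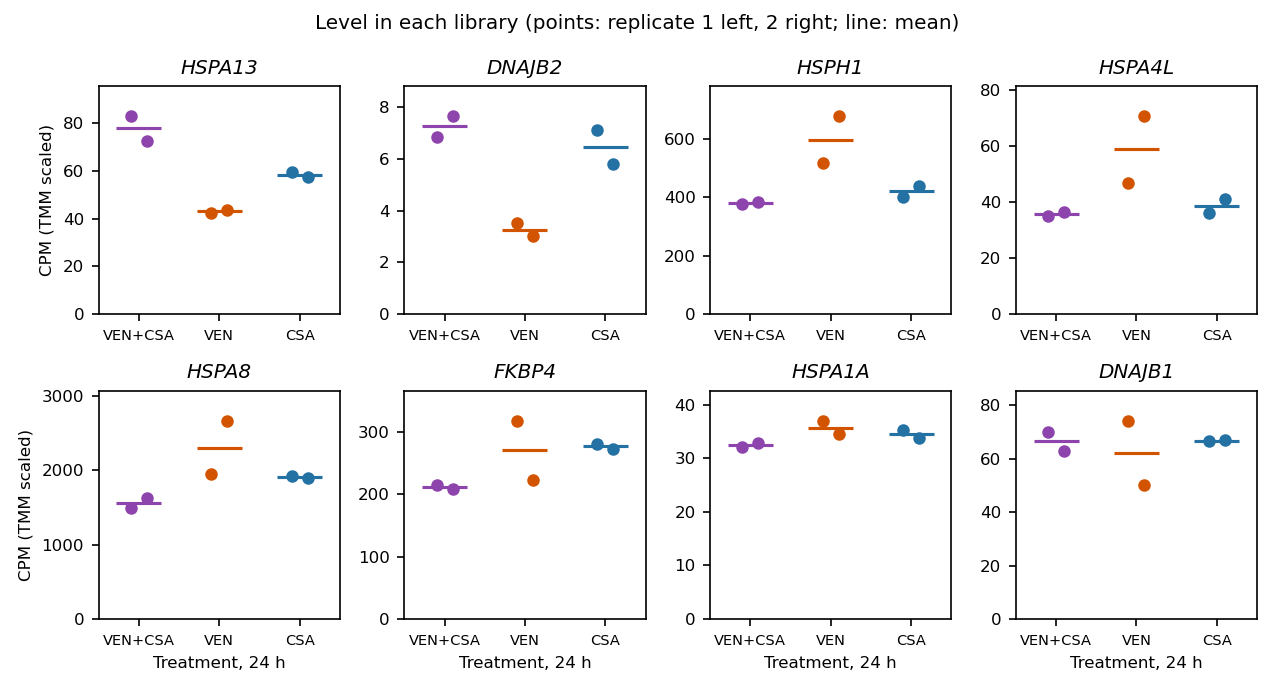
CPM (TMM scaled, axis from 0) of 8 genes in each library; points are libraries and lines are group means. HSPA13 and DNAJB2 separate VEN from both other groups, whereas HSPH1, HSPA4L and HSPA8 also show a wide gap between the 2 VEN libraries, and HSPA1A spans 32.2 to 37.0 CPM over all 6 libraries.

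Among mitochondrial chaperones, HSPA9, which pulls proteins through the inner membrane, depended on VEN replicate 2. It was at 802.7 and 900.7 CPM with the combination, against 661.8 and 980.3 CPM with venetoclax. Its log2 fold change was 0.05 (SE 0.22) with all libraries and 0.37 (SE 0.12, adjusted p = 0.256 by edgeR) without that library. HSPD1 was at 718.3 and 692.3 CPM with the combination and 758.3 and 742.1 CPM with venetoclax (−0.09, SE 0.14), the narrowest spread of the 34 genes, its highest library being 1.10 times its lowest. HSPE1, which shares a promoter region with HSPD1 and lies on the opposite strand, was at 144.6 and 106.2 CPM with the combination and 168.3 and 155.9 CPM with venetoclax (−0.37, SE 0.19). Exons of these neighbours overlap by 281 bases in GENCODE, and the sources used here do not give the strand setting of the counting, so reads in that stretch cannot be assigned to one of them. TRAP1, the mitochondrial HSP90, was at −0.24 (SE 0.16), and DNAJA3, a mitochondrial HSP40, at 0.05 (SE 0.17). TRAP1 was at −0.33 and HSPE1 at −0.42 when VEN replicate 2 was left out. The remaining genes, HSPA2, HSPA14, DNAJA2, DNAJB4, DNAJB6, HSPB11 and HSF2, lay from −0.38 (DNAJB4, SE 0.38) to 0.00 (HSPA2, SE 0.26). Some of these values rested on VEN replicate 2. HSPA14 went from −0.16 to −0.11 and DNAJB6 from −0.24 to −0.07 with that library left out, and both kept their sign. Without it DNAJB4 was at 0.09, DNAJA2 at 0.23, HSPB11 at 0.09 and HSF2 at 0.28, all above 0, and HSPA2 was at −0.27. Of the 33 genes, 10 had the opposite sign without that library.

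**Figure D4:**
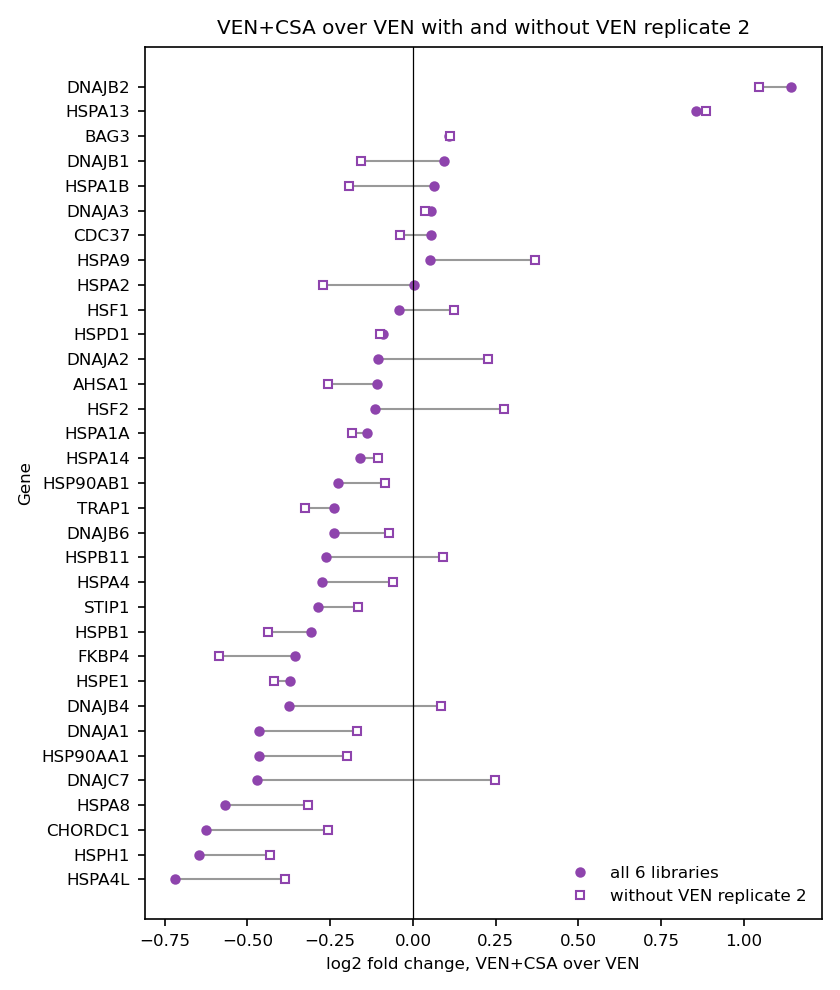
log2 fold change of VEN+CSA over VEN for the 33 genes tested, from all 6 libraries (filled circles) and without VEN replicate 2 (open squares), joined by a line. The median of the 33 genes is −0.11 without that library and −0.23 with it, DNAJC7 crosses 0, and HSPA13 and DNAJB2 stay at 0.89 and 1.04.

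Of the most inducible HSF1 targets named above, none passing the filter had unadjusted p under 0.05 in any comparison with all 6 libraries. That list leaves out HSP90AA1, the inducible HSP90 form, and HSPH1. For the combination over venetoclax their unadjusted p was 0.0780 and 0.0130 by edgeR, and for venetoclax over CSA 0.0770 and 0.0336. HSPA1A and HSPA1B (chr6:31815464-31817946 and chr6:31827735-31830255, plus strand) are near-identical copies, with 4 of 1923 coding bases different, so counting can split their reads in any way and they were also summed. HSPA1A was at 32.2 and 32.8 CPM with the combination, 37.0 and 34.4 CPM with venetoclax, and 35.3 and 33.9 CPM with CSA. HSPA1B was at 33.0 and 28.6 CPM with the combination, 35.4 and 23.5 CPM with venetoclax, and 32.5 and 32.0 CPM with CSA. Both combination libraries were thus the lowest for HSPA1A, whereas VEN replicate 2 was the lowest for HSPA1B. The sum was at 65.1 and 61.4 CPM with the combination, 72.4 and 57.9 CPM with venetoclax, and 67.7 and 65.8 CPM with CSA. Its log2 fold change was −0.04 (95% interval −0.47 to 0.38) for the combination over venetoclax and −0.08 (−0.50 to 0.34) for the combination over CSA. For venetoclax over CSA it was −0.04 (−0.46 to 0.39). These intervals bound how large a difference the data allow, and they do not show that the groups were equal. DNAJB1 was at 70.0 and 62.8 CPM with the combination, 74.3 and 50.3 CPM with venetoclax, and 66.6 and 66.9 CPM with CSA. Its 95% interval for the combination over venetoclax was −0.45 to 0.64 and for the combination over CSA −0.55 to 0.54. BAG3 was at 19.0 and 22.4 CPM with the combination, 19.2 and 19.2 CPM with venetoclax, and 17.4 and 18.8 CPM with CSA (0.11 over venetoclax, 95% interval −0.33 to 0.55). HSPB1 was at 75.5 and 90.3 CPM with the combination, 112.6 and 92.7 CPM with venetoclax, and 100.0 and 105.0 CPM with CSA, so the combination had its 2 lowest libraries. Its log2 fold change was −0.31 (SE 0.18) over venetoclax and −0.31 (SE 0.18) over CSA. Leaving out VEN replicate 2 gave −0.44 (unadjusted p = 0.0259, adjusted p = 0.253 by edgeR) and −0.31 (unadjusted p = 0.0453, adjusted p = 0.405 by edgeR). HSF1 itself was at 67.4 and 90.2 CPM with the combination, 72.5 and 89.8 CPM with venetoclax, and 77.4 and 77.7 CPM with CSA, and its groups overlapped in every comparison.

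The combination against CSA alone asks what venetoclax added to CSA, with the same proviso for the CSA dose. By edgeR 0 of the 33 genes were called, beside 0% of all genes. At an unadjusted p under 0.05, 1 gene was higher (background 1.95%) and 0 were lower (background 1.69%). The median log2 fold change was −0.03, with 14 genes higher and 19 lower, against 0.00 over all genes tested. Without VEN replicate 2 it was −0.03, with 14 of 34 genes higher and 20 lower, against −0.002 over all genes tested. Groups did not overlap in 8 higher genes (24.2%) and 10 lower genes (30.3%), near the 23.5% and 23.7% of all genes. The gene at unadjusted p under 0.05 was again HSPA13, at 83.0 and 72.5 CPM with the combination, against 59.5 and 57.2 CPM with CSA (0.41, SE 0.16, adjusted p = 1.00 by edgeR, and 0.332 without VEN replicate 2). It was thus highest with the combination, lower with CSA and lowest with venetoclax. FKBP4 was at 214.9 and 208.2 CPM with the combination and 281.0 and 273.3 CPM with CSA (−0.39, SE 0.20, adjusted p = 1.00 by edgeR). The spread is shared over all 6 libraries, and without VEN replicate 2 the SE of FKBP4 was 0.08 at the same fold change, with adjusted p = 0.237. HSPA8 was at 1490 and 1622 CPM with the combination and 1916 and 1890 CPM with CSA (−0.29, SE 0.21). HSPE1 (−0.32, SE 0.19), HSPB1 (−0.31, SE 0.18), DNAJA3 (−0.22, SE 0.17) and TRAP1 (−0.20, SE 0.16) also had both combination libraries below both CSA libraries, and HSF2 had both above (0.33, SE 0.26). HSP90AA1 (0.00) and HSP90AB1 (−0.03) had overlapping libraries. Without VEN replicate 2, whose removal leaves the values of these groups in place, 0 of the 34 genes were called, against 0.185% of all genes. At an unadjusted p under 0.05, 2 were then higher (HSPA13 and HSF2) and 3 lower (FKBP4, HSPA8 and HSPB1), against 6.25% and 5.71% of all genes.

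**Figure D5:**
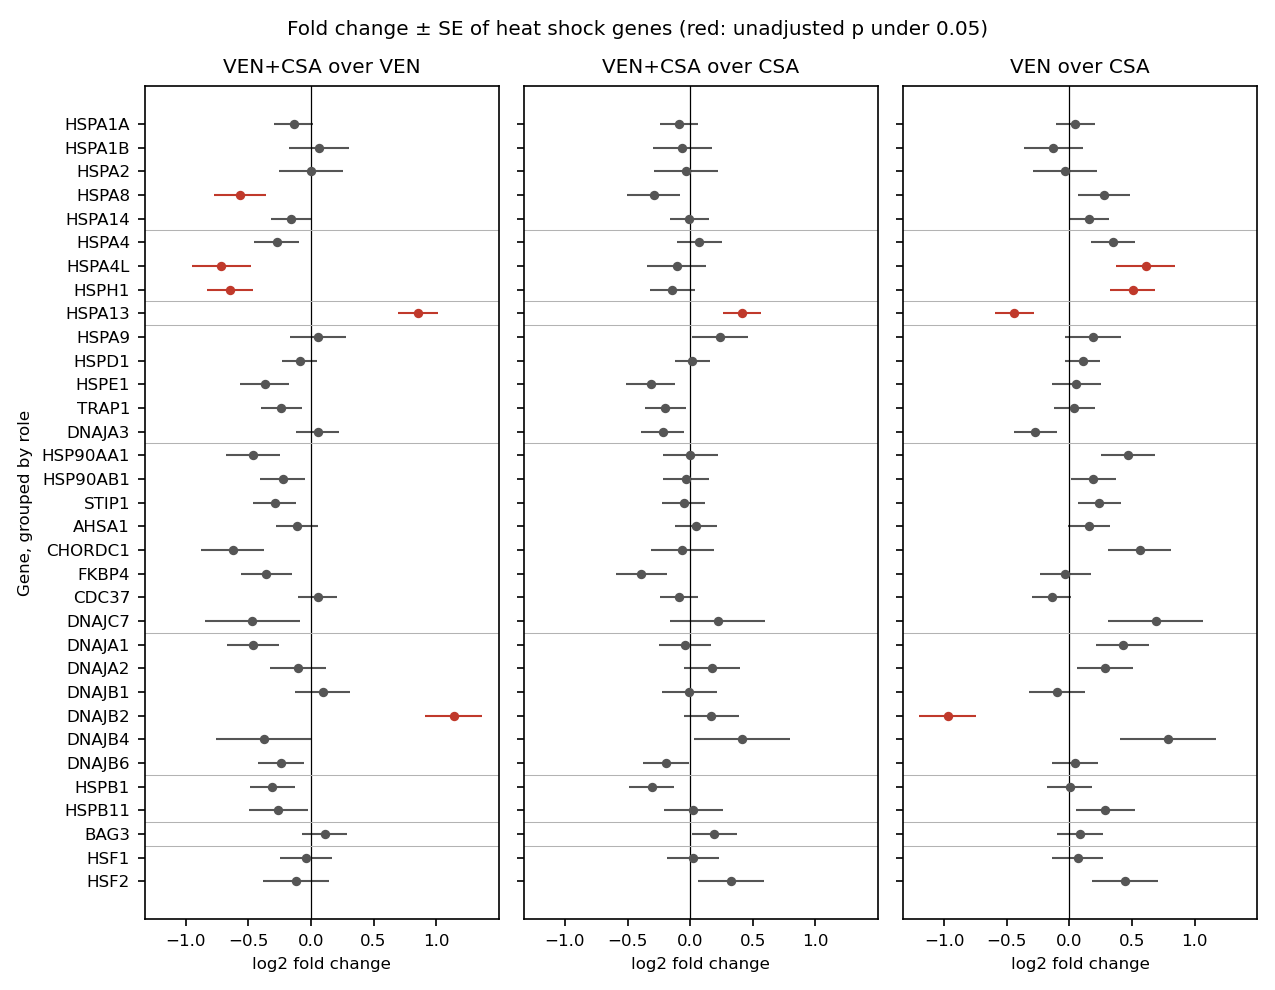
log2 fold change with its SE (bars) for the 33 genes tested, grouped by role, for VEN+CSA over VEN, VEN+CSA over CSA and VEN over CSA; red marks an unadjusted p under 0.05. The middle panel lies near 0 (median −0.03), and HSPA13 is the only gene marked in it.

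Venetoclax against CSA uses the same venetoclax libraries as the first comparison, so the values of both are not independent. By edgeR 0 of the 33 genes were called, beside 0% of all genes. The median log2 fold change was 0.15, with 25 genes higher and 8 lower, against 0.00 over all genes tested. At an unadjusted p under 0.05, 2 were higher (background 2.34%) and 2 lower (background 2.46%). Both venetoclax libraries lay above both CSA libraries in 13 genes (39.4%), against 20.8% of all genes, and below them in 4 (12.1%), against 19.9%. DNAJB2 had 3.52 and 3.02 CPM in the venetoclax libraries, against 7.11 and 5.79 CPM with CSA (−0.97, SE 0.23, 95% interval −1.53 to −0.41, adjusted p = 0.633 by edgeR). HSPA13 had 42.2 and 43.8 CPM in the venetoclax libraries, against 59.5 and 57.2 CPM with CSA (−0.44, SE 0.16). HSPH1 had 515.8 and 678.5 CPM in the venetoclax libraries, against 401.6 and 439.7 CPM with CSA (0.51, SE 0.18), and HSPA4L had 46.8 and 70.8 CPM in them, against 36.0 and 41.0 CPM with CSA (0.61, SE 0.24). CHORDC1 (0.56, SE 0.25), HSP90AA1 (0.47, SE 0.22), DNAJA1 (0.43, SE 0.21) and DNAJB4, another HSP40 (0.79, SE 0.38), were the next by p. Without VEN replicate 2 the values were −0.88 for DNAJB2, −0.47 for HSPA13, 0.29 for HSPH1 and 0.28 for HSPA4L, and 0.19, 0.20, 0.13 and 0.32 for the other 4. The median was then 0.10, with 23 of the 34 genes higher and 11 lower, against −0.01 over all genes tested. In that fit 0% of all genes were called, and 2 of the 34 genes were higher (HSPH1 and AHSA1) and 2 lower (DNAJB2 and HSPA13) at an unadjusted p under 0.05, against 1.58% and 3.21% of all genes. The fit without VEN replicate 1 called 13 of the 34 genes (38.2%) and 33.8% of all genes.

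The promoter motifs described above were set beside the fold changes, a split made after the values were seen. The 7 tested genes with a 13-letter run were all lower with the combination than with venetoclax, from −0.62 to −0.09 with a median of −0.46. The 23 tested genes with a window and no such run had a median of −0.12, with 9 higher and 14 lower. Over the 43 tested genes with a 13-letter run that were not members, 26 were higher and 17 lower, with a median of 0.09. Without VEN replicate 2 the medians of the members were −0.13 and −0.06, with 8 of 8 and 13 of 23 lower. HSPA6, at few counts, was then among the 8. Against CSA the combination had a median of −0.04 in the 7 genes and −0.01 in the 23. Venetoclax over CSA gave 7 of 7 higher with a median of 0.28, against 0.08 in the 23 without a run, of which 16 were higher and 7 lower. The 43 genes with a run that were not members split into 22 higher and 21 lower, with a median of 0.002. In the fit without VEN replicate 2 the median was 0.08 in members with a run, with 2 of 8 lower, and 0.10 in those without. The split was thus not seen there for venetoclax over CSA.

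A further 4 lists of chaperone genes are described by counts and medians. Of 23 other HSP70 and HSP90 co-chaperones, 8 were higher and 15 lower with the combination than with venetoclax (median −0.18), and 0 were called. FKBP5, an immunophilin that binds HSP90, was at 151.8 and 153.7 CPM with the combination and 189.5 and 223.2 CPM with venetoclax (−0.43, SE 0.18). BAG2 was at −0.73 (SE 0.33) and −0.15 without VEN replicate 2, and PPP5C, a phosphatase that binds HSP90, at −0.28 (SE 0.16) and −0.39 without it. PPID, which is both an HSP90 co-chaperone and a cyclophilin, was at 63.0 and 85.4 CPM with the combination, against 49.9 and 57.2 CPM with CSA (0.47, SE 0.35). Venetoclax over CSA gave PTGES3, the HSP90 co-chaperone p23, at 351.9 and 415.3 CPM with venetoclax and 215.4 and 247.0 CPM with CSA (0.73, SE 0.23), but the combination was at 232.3 and 345.7 CPM. Of 14 subunits of the TRiC chaperonin and prefoldin, which fold actin and tubulin, 6 were higher and 8 lower than with venetoclax (median −0.03), from −0.23 to 0.26. CCT2 was at −0.18 (SE 0.14) and PFDN5 at 0.26 (SE 0.19), or 0.10 without VEN replicate 2. Of 15 mitochondrial import and protease genes, 12 were higher and 3 lower (median 0.15, and 0.03 without VEN replicate 2). TIMM44, which tethers HSPA9 at the import channel, was at 111.6 and 113.2 CPM with the combination and 87.6 and 57.5 CPM with venetoclax (0.63, SE 0.23, and 0.36 without VEN replicate 2). Of 13 small and tissue-restricted heat shock genes 6 passed the filter (3 higher and 3 lower, median 0.03). HSPA1L, a testis HSP70, was at 1.71 and 2.07 CPM with the combination, 1.42 and 1.11 CPM with venetoclax, and 1.02 and 1.11 CPM with CSA, and its log2 fold change was 0.82 (SE 0.31) over CSA. It lies next to HSPA1A and was counted at low depth. In these 4 lists 0 genes were called by edgeR in any of the 3 comparisons with all 6 libraries.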

How the data were processed

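Messenger RNA of 6 MV4-11 libraries was counted per gene by the authors. The deposited values are whole-number counts, not normalized. The tools STAR, RSEM and DESeq2 and the build hg38 are named, per the submitters' processing notes, and the sources used here give no versions, roles, annotation or strand setting. Libraries were grouped by title. A further 2 columns were assigned to no sample and not used. In each library 64.8% to 66.7% of counts from 1 to 20 were even, against 49.0% to 51.0% of counts of 100 or more, and what this does to the tests was not tested.

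Symbols were found for 20148 of 20263 identifiers, and coordinates and exon lengths come from GENCODE release 29 (GRCh38). Promoter windows come from RefSeq (GRCh38.p14). Exons of 9 of the 34 genes overlap a counted gene on the opposite strand, DNAJB1, TRAP1, HSP90AA1, HSF1 and DNAJC7 among them, and HSPA8, HSPD1, HSPE1 and both HSP90 genes have processed pseudogenes, so their counts may hold or lack shared reads. The same limit holds for overlaps on the same strand. HSPA14 shares 460 exon bases with another counted entry of that name in GENCODE, which had 2736 counts. HSPE1 shares 192 bases with HSPE1-MOB4, and DNAJB4 shares 78 bases with GIPC2. Genes passing filterByExpr (12690, or 12940 without VEN replicate 2) were scaled by TMM. The test was edgeR's two-sided quasi-likelihood test (version 4.0.16, R 4.3.3; glmQLFit with robust settings, glmQLFTest). All 6 libraries shared one group model, which left 3 residual degrees of freedom. P-values were adjusted by Benjamini-Hochberg over all genes tested and the threshold was 0.05. SE and 95% intervals come from this fit. The test was checked on simulated counts in which a gene had the same spread in all 6 libraries. The wider spread between the venetoclax replicates was therefore not covered by that check. Replicates differed well beyond sampling noise, with a chi-square of 31.5 to 846.4 per degree of freedom, so each was counted as its own library.

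The members, lists and tests were chosen with earlier results of these data known. Values per library are given for up to 8 genes with the smallest p in each comparison, 12 set genes, and up to 3 genes of each other list. Members described beyond that rule, such as HSPA4, HSPA9, DNAJC7, and FKBP4 and HSPB1 in the first comparison, were chosen after their values were seen, and so was DNAJB4 among the remaining genes. Alternatives were DESeq2 1.42.0, limma-voom with library quality weights (limma 3.58.1), library-size scaling, no filter, only the 4 libraries compared, a replicate block, and leaving out each library in turn, which assumes that the lone library left in a group varies as the other groups do.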

Additional observations from a re-analysis of the deposited data

How the results depend on the processing

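With all 6 libraries edgeR called 0 genes in each comparison. For the combination over venetoclax, DESeq2 called 294 genes in all and 2 heat shock genes (HSPA13 and DNAJB2), and edgeR without a filter on low counts called 15 genes in all. Of the alternatives that kept all 6 libraries, limma-voom with library quality weights among them, only DESeq2 called a heat shock gene. For the combination over CSA the counts in all were 56 with DESeq2, 49 with limma-voom with library quality weights, 4 without a filter and 24 from only the 4 libraries compared. For venetoclax over CSA they were 63 with DESeq2 and 2 without a filter. At an unadjusted p under 0.05 edgeR had 677 genes higher and 695 lower for the combination over venetoclax, 247 and 215 for the combination over CSA, and 297 and 312 for venetoclax over CSA.

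Leaving out each library in turn gave 0 to 3426 genes in all for the combination over venetoclax (3426 without VEN replicate 1, 49 without VEN replicate 2), 0 to 24 for the combination over CSA (24 without either venetoclax library) and 0 to 4385 for venetoclax over CSA (4385 without VEN replicate 1). Called heat shock genes ranged from 0 to 11, 0 to 0 and 0 to 13, the 11 and 13 without VEN replicate 1, where 32.4% and 38.2% of the 34 genes were called, against 26.4% and 33.8% of all genes. The members' median for the combination over venetoclax ranged from −0.23 to −0.11, with −0.11 without VEN replicate 2 and −0.15 without combination replicate 1, over the 33 genes tested with all libraries. That for the combination over CSA ranged from −0.05 to 0.00 and that for venetoclax over CSA from 0.10 to 0.20. HSPA1A and HSPA1B summed to 1 gene gave −0.042 for the combination over venetoclax, where HSPA1B alone was at 0.06, and −0.035 for venetoclax over CSA, where HSPA1A alone was at 0.05. With a library left out the sign turned in 13 of the 33 genes for the combination over venetoclax, 11 for the combination over CSA and 15 for venetoclax over CSA, and 10, 0 and 10 of these turned without VEN replicate 2. Among them, over venetoclax, were HSF2 (−0.42 to 0.28), DNAJA2 (−0.37 to 0.23), HSPA2 (−0.27 to 0.36), HSPA9 (−0.20 to 0.37), DNAJC7 (−0.94 to 0.25) and, for venetoclax over CSA, FKBP4 (−0.31 to 0.19) and HSPA9 (−0.13 to 0.44). Of the genes the text names by rule, the ranges for the combination over venetoclax were −0.0083 to 0.22 for BAG3, −0.16 to 0.40 for DNAJB1, −0.26 to 0.15 for HSF1 and −0.19 to 0.39 for HSPA1B. For the combination over CSA they were −0.088 to 0.071 for DNAJB1, −0.20 to 0.22 for HSF1, −0.072 to 0.077 for HSP90AA1, −0.080 to 0.011 for HSP90AB1, −0.17 to 0.034 for HSPA1B and −0.012 to 0.044 for HSPD1. For venetoclax over CSA they were −0.41 to 0.15 for DNAJB1, −0.10 to 0.21 for HSF1, −0.0072 to 0.093 for HSPA1A, −0.46 to 0.13 for HSPA1B and −0.0029 to 0.11 for HSPE1.

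With library-size scaling the median of all genes was 0.26, −0.04 and −0.31 in the 3 comparisons, and relative to it no named gene turned. With a replicate block the counts of called genes stayed at 0 and the medians of the heat shock genes were −0.22, −0.03 and 0.15. The labels do not say that numbers mark a shared culture or day; the deviations of same-numbered libraries correlated over 12690 genes at 0.34 (combination and venetoclax), 0.24 (combination and CSA) and 0.25 (venetoclax and CSA). A p that misses the threshold does not show that levels were equal. The cause of the differences between settings was not tested.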
